A study of Macaca fascicularis with 21 samples.

Results

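Collagens are the proteins of the animal extracellular matrix that fold as a triple helix, and each chain of the helix has a gene of its own. The collagen genes of the cynomolgus monkey (Macaca fascicularis) were taken as every row of the deposited count table whose name is COL, a type number, A and a chain number. This gave 44 of the 30792 genes in the table, of which 11 code for chains of fibrillar collagens, 6 for the type IV collagens of basement membranes, 5 for type VI collagen and 22 for all other types. The study grew blastocysts in dishes coated with Matrigel, a basement membrane gel, and read the 3′ ends of the mRNA of single cells picked from the dissected embryonic part. No embryo was treated or altered in its genes, and every embryo shared this culture, so no group grew in a uterus. The 1453 cells came from 2 embryos of day 11, 5 of day 12, 3 of day 13, 4 of day 14, 4 of day 16 and 3 of day 17, and the embryo was the replicate.

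Fibrillar collagens (types I, III and V among them) assemble into the cross-linked fibrils that give connective tissue its strength, and type VI collagen forms beaded microfibrils around cells. Type IV collagen is a sheet-forming network under epithelia and endothelia, where the type XV and XVIII chains are also found. In the early primate embryo a loose extra-embryonic mesenchyme fills the space between the yolk sac, the amnion and the trophoblast and is known as a tissue rich in matrix.

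The authors' labels sort the cells into extra-embryonic mesenchyme (EXMC, 485 cells), visceral and yolk sac endoderm (VE/YE, 101), trophectoderm and its derivatives (TE, 380), amnion (AM, 82), gastrulating cells (Gast, 83), primordial germ cells (PGC, 18) and epiblast (EPI, 304). Counts were summed per embryo and cell family where at least 5 cells were held, and a level is given as CPM, the counts of such a sum scaled to a total of 1000000. Embryos held 22 to 88 cells, and a cell held 3376 to 483669 counts with a median of 61090. The markers of EXMC (8 of 10), VE/YE (7 of 8), TE (7 of 8) and PGC (5 of 5) were mostly highest on average in their own family. Only 4 of 7 AM markers, 3 of 6 EPI markers and 1 of 6 Gast markers were highest in theirs, so these families are named here by the authors' labels alone. In EXMC, HAND1 and SNAI2 were not highest, and SNAI2 was at 0 in every TE, AM, Gast and EPI sum.

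The 44 genes took 0.982% of all counts, and 0.349% fell on fibrillar chains, 0.0586% on type IV chains, 0.101% on type VI chains and 0.473% on the others. A single gene, COL19A1, took 0.449% by itself and is described last. Of the 44 genes, 18 were highest on average in EXMC, 6 in AM, 5 in PGC, 5 in EPI, 4 in VE/YE, 3 in TE and 3 in Gast. The same tally over all genes is not given here. Some of these highest means were low, such as 0.868 CPM for COL6A5 in AM, 1.15 for COL11A2 in EPI and 6.66 for COL7A1 in EXMC. The AM and Gast means rest on 6 sums each and the PGC means on 3. The map of mean levels shows the 12 labels and all 44 genes side by side.

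**Figure D1:**
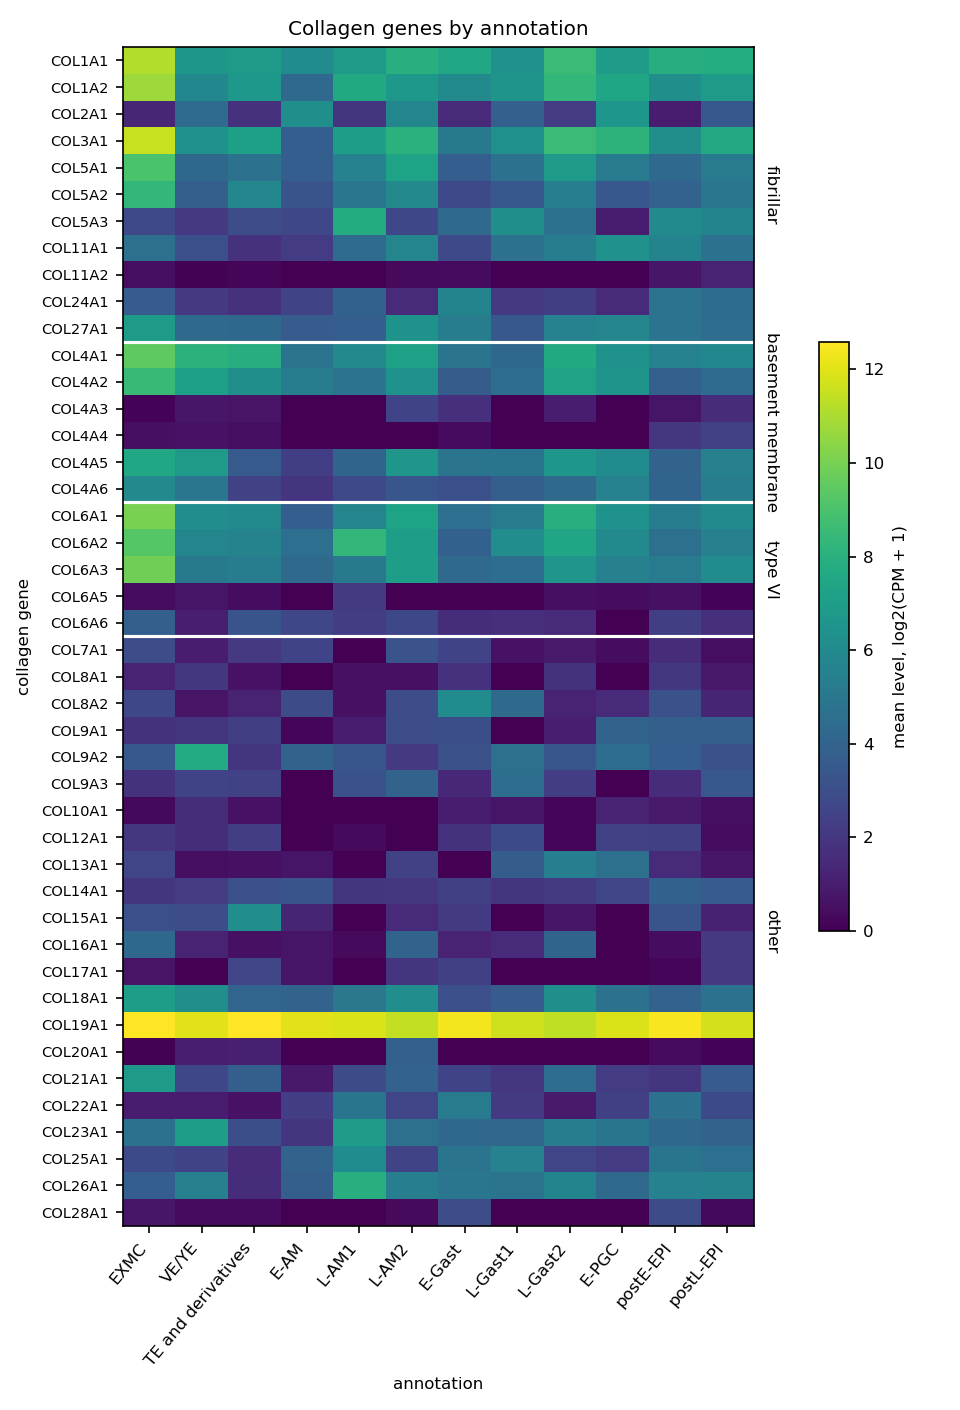
Mean level of each of the 44 collagen genes (rows, grouped by class) in each of the 12 labels of the authors (columns), as log2(mean CPM + 1) over sums of at least 3 cells per embryo. The EXMC column is the highest for COL1A1, COL1A2, COL3A1 and the abundant type IV and type VI chains, while COL9A2 and COL23A1 peak in VE/YE and COL15A1 in TE.

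Fibrillar, type IV and type VI chains were higher in EXMC than in EPI of the same embryos. In 13 embryos that held both, 15 of the 21 collagen genes that passed the filter on low counts were higher in EXMC and 3 were lower (edgeR quasi-likelihood test with embryo as a block, Benjamini-Hochberg adjusted p under 0.05). Among all 9803 genes tested, 34.8% were called, 16.0% higher and 18.8% lower. The median difference was 3.01 on the log2 scale over the 21 collagen genes and -0.07 over all genes tested. By class, 6 of 8 fibrillar genes, 4 of 4 type IV genes, 3 of 3 type VI genes and 2 of 6 others were higher in EXMC. The comparisons with EPI described here and in the following paragraphs share their EPI sums.

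COL3A1, the chain of type III collagen, ranged from 239.8 to 8854 CPM in EXMC with a median of 1925, and from 4.76 to 257 CPM in EPI with a median of 73.5. EXMC was the higher in 13 of 13 embryos, by 5.33 ± 0.41 on the log2 scale (SE, edgeR adjusted p = 5.94e-07), although the ranges over different embryos overlapped at their ends. COL1A2, the second chain of type I collagen, averaged 1919 ± 1757 CPM in EXMC and 82.4 ± 65.1 CPM in EPI (SD, n = 13 each), a difference of 3.94 ± 0.51 (SE, edgeR adjusted p = 6.29e-05). For COL1A1, the first chain of type I collagen, the difference was 2.86 ± 0.69 (edgeR adjusted p = 0.00599), and EXMC was higher in 11 of 13 embryos. The exceptions were both embryos of day 11, with 232 and 164 CPM in EXMC and 266 and 276 CPM in EPI. With developmental stage labels alone the COL1A1 difference was 3.02 with an adjusted p of 0.0704, so that call was lost.

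The type V chains, which start the growth of type I fibrils, did not move together. COL5A1 ranged from 120.3 to 1498 CPM in EXMC with a median of 506, and from 2.38 to 75.0 CPM in EPI with a median of 15.4, being 4.90 ± 0.24 higher on the log2 scale (SE, edgeR adjusted p = 1.85e-11). COL5A2 was 4.21 ± 0.27 higher (edgeR adjusted p = 1.79e-10), and both were higher in 13 of 13 embryos. COL5A3, the third type V chain, went the other way, with 7.31 ± 8.63 CPM in EXMC and 52.3 ± 41.2 CPM in EPI, a difference of -2.99 ± 0.58 (edgeR adjusted p = 0.000418). Only 2 of 13 embryos had more COL5A3 in EXMC. The less studied fibrillar chain COL27A1 was 2.33 ± 0.28 higher in EXMC (edgeR adjusted p = 1.26e-06).

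All 4 type IV chains that could be tested were higher in EXMC. COL4A2 ranged from 226 to 998 CPM in EXMC with a median of 366, and from 1.74 to 33.2 CPM in EPI with a median of 9.67. No EXMC sum came near an EPI sum, and the difference was 5.06 ± 0.25 (SE, edgeR adjusted p = 1.56e-11). COL4A1, its partner in the common type IV network, averaged 775 ± 339.8 CPM in EXMC and 39.7 ± 35.5 CPM in EPI, 4.57 ± 0.33 higher (edgeR adjusted p = 1.04e-07). COL4A5 and COL4A6, the chains of a more restricted network, were 3.01 ± 0.37 and 2.03 ± 0.37 higher (edgeR adjusted p = 5.26e-06 and 0.000189). The remaining type IV chains, COL4A3 and COL4A4, best known from the kidney filter, had 134 and 137 counts in all cells together and were not tested.

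COL6A1, COL6A2 and COL6A3, the chains of the usual type VI molecule, were each higher in EXMC in 13 of 13 embryos. COL6A3 averaged 1051 ± 509.8 CPM in EXMC and 38.7 ± 39.3 CPM in EPI (SD, n = 13 each), a difference of 5.23 ± 0.49 (SE, edgeR adjusted p = 3.45e-06). The differences were 5.11 ± 0.39 for COL6A1 and 4.62 ± 0.22 for COL6A2 (edgeR adjusted p = 3.66e-07 and 1.85e-11). Of the remaining types, COL21A1, a collagen that binds to fibrils, was 3.97 ± 0.45 higher (edgeR adjusted p = 8.84e-07), and COL18A1, the source of endostatin, was 2.98 ± 0.27 higher (edgeR adjusted p = 1.45e-08). The transmembrane collagen COL25A1 and COL26A1 were lower in EXMC, by -2.33 ± 0.60 and -1.55 ± 0.42 (edgeR adjusted p = 0.00381 and 0.00599).

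**Figure D2:**
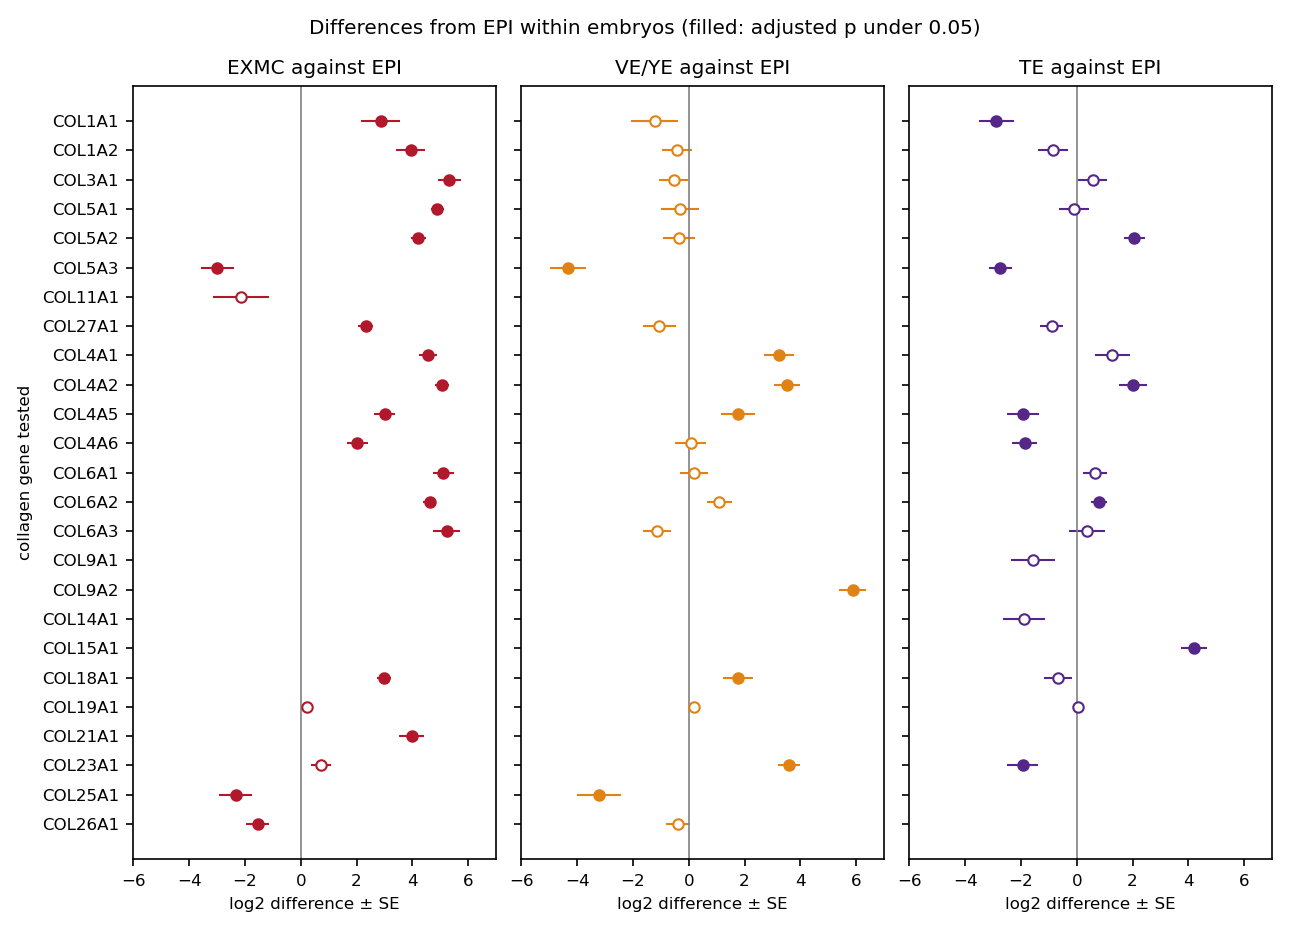
Log2 difference of each tested collagen gene in EXMC, VE/YE and TE against EPI of the same embryos, with its standard error; filled points had an adjusted p under 0.05. In EXMC 15 of 21 genes lie on the higher side as filled points, against 6 of 20 in VE/YE and 4 of 20 in TE, and COL5A3 lies on the lower side in each.

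Collagen levels outside EXMC were set beside those of EXMC markers. The 10 EXMC markers summed to 1334 to 13543 CPM in EXMC sums and to 25.0 to 380.5 CPM in EPI sums. In EPI, the median of 8 abundant fibrillar, type IV and type VI genes (COL1A1, COL1A2, COL3A1, COL4A1, COL4A2, COL6A1, COL6A2 and COL6A3) was 3.27% of their EXMC level in the same embryos, beside 2.13% for the EXMC markers. The same medians were 6.22% and 3.07% in TE, 3.76% and 2.97% in VE/YE, 4.67% and 4.07% in AM, 11.9% and 16.4% in Gast and 4.45% and 3.63% in PGC. Single EXMC markers did not all lie near their median: they spanned 0 to 3.81% of the EXMC level in EPI, 0 to 38.5% in TE, 0 to 41.1% in VE/YE, 0 to 399.7% in AM, 0 to 335% in Gast and 0 to 75.2% in PGC. What part EXMC RNA had in these collagen levels was not tested.

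The proportions of chains in EXMC and in EPI are described here after the values were seen. Medians are over all 19 EXMC sums and all 14 EPI sums, which are not all of the same embryos. The counts of embryos are over the 13 that held both. The ratio of COL1A1 to COL1A2 counts had a median of 1.31 in EXMC and 2.96 in EPI (0.976 to 20.3), and it was higher in EPI in 12 of 13 embryos. The ratio of COL3A1 to COL1A1 counts had a median of 1.63 in EXMC and 0.298 in EPI, and it was higher in EPI in 0 of 13 embryos. For COL4A1 to COL4A2 the medians were 1.82 in EXMC and 3.32 in EPI, with EPI the higher in 11 of 13.

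In VE/YE 3 of 4 tested type IV chains and 3 of 6 tested collagens of other types were higher than in EPI, while the abundant fibrillar and type VI chains did not pass the test. Over 7 embryos, 6 of 20 tested collagen genes were higher and 2 were lower (edgeR quasi-likelihood test, embryo as a block). Among all 8098 genes tested, 23.2% were called, 11.1% higher and 12.1% lower, and the median difference was -0.12 for collagen genes and -0.10 for all genes.

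COL9A2, a chain of type IX collagen known from cartilage, had the largest difference of the tested collagen genes. Its 7 VE/YE sums held 57.7, 125, 175, 444.5, 150.1, 413 and 602 CPM, and the EPI sums of the same embryos held 2.38 to 12.9 CPM with a median of 3.82. The groups did not overlap, and the difference was 5.87 ± 0.49 (SE, edgeR adjusted p = 1.46e-07). In each of the 9 VE/YE sums a single cell gave between 28.4% and 78.0% of the COL9A2 counts. COL23A1, a transmembrane collagen, was more even between embryos, with 176 ± 37.0 CPM in VE/YE and 17.7 ± 11.2 CPM in EPI (SD, n = 7 each). It was 3.60 ± 0.39 higher in VE/YE (SE, edgeR adjusted p = 2.41e-06). Within the 9 VE/YE sums a single cell gave between 23.5% and 67.4% of the COL23A1 counts.

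COL4A2 averaged 139.9 ± 79.5 CPM in VE/YE and 12.6 ± 9.79 CPM in EPI (SD, n = 7 each), a difference of 3.53 ± 0.46 (SE, edgeR adjusted p = 1.79e-05), and COL4A1 was 3.24 ± 0.53 higher (edgeR adjusted p = 0.000758). Both were higher in 7 of 7 embryos. COL18A1 was 1.78 ± 0.54 higher and COL4A5 1.77 ± 0.62 higher (edgeR adjusted p = 0.0226 and 0.0459). The COL4A5 call was lost without day 11 replicate 1 or without day 16 replicate 1, 3 or 4, up to an adjusted p of 0.165. COL5A3 was -4.32 ± 0.65 lower, with 4.28 ± 6.16 CPM in VE/YE and 68.3 ± 47.9 CPM in EPI (edgeR adjusted p = 7.71e-05), and COL25A1 was -3.22 ± 0.78 lower (edgeR adjusted p = 0.00561). The COL25A1 call was lost with at least 10 cells per sum (adjusted p = 0.158) and without the embryo block (0.0643). Only the VE/YE sums of day 11 replicate 1 and day 16 replicates 1 and 4 hold at least 10 cells.

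The log2 differences of the chains that did not pass were -1.22 ± 0.84 for COL1A1, -0.41 ± 0.54 for COL1A2 and -0.54 ± 0.51 for COL3A1 (edgeR adjusted p = 0.347, 0.641 and 0.493). For type VI they were 0.19 ± 0.51 for COL6A1, 1.10 ± 0.46 for COL6A2 and -1.14 ± 0.51 for COL6A3 (edgeR adjusted p = 0.83, 0.0909 and 0.122). With SEs of this size, these values do not show that VE/YE and EPI held equal levels.

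Set directly against EXMC in 9 embryos, VE/YE was lower for 13 and higher for 2 of 18 tested collagen genes (edgeR quasi-likelihood test, embryo as a block). Among all 9112 genes tested, 13.2% were called, 6.12% higher and 7.06% lower in VE/YE. The median difference was -2.21 for collagen genes and -0.13 for all genes. COL6A3 averaged 24.3 ± 22.6 CPM in VE/YE and 1123 ± 514 CPM in EXMC (SD, n = 9 each), a difference of -5.70 ± 0.31 (SE, edgeR adjusted p = 4.24e-10). COL3A1 differed by -5.40 ± 0.37, COL1A2 by -5.00 ± 0.42 and COL1A1 by -4.80 ± 0.66 (edgeR adjusted p = 2.23e-06, 6.21e-06 and 0.0013), each lower in VE/YE in 9 of 9 embryos. With at least 10 cells per sum, the COL1A1 and COL1A2 calls were lost (adjusted p = 0.455 and 0.0501), as were those of COL4A1, COL4A6, COL5A2, COL6A1, COL18A1, COL23A1 and COL27A1. That setting keeps only day 11 replicate 1 and day 16 replicates 1 and 4, whose VE/YE sums held 13, 14 and 10 cells. Over the alternatives other than single embryos, COL1A1 differed by -5.05 to -3.78 and COL1A2 by -5.09 to -4.14.

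The gap was smaller for the type IV chains. COL4A2 averaged 135 ± 69.7 CPM in VE/YE and 504 ± 253 CPM in EXMC, a difference of -1.80 ± 0.26 (SE, edgeR adjusted p = 4.88e-05). COL4A1 averaged 305 ± 225 CPM in VE/YE and 804 ± 331 CPM in EXMC, a difference of -1.58 ± 0.47 (edgeR adjusted p = 0.0478), with VE/YE the higher in 2 of 9 embryos. Both exceptions were of day 11, where COL4A1 stood at 576 and 719 CPM in VE/YE, against 437 and 429.5 CPM in EXMC. Leaving out any of 7 embryos, all but those of day 11, ended the COL4A1 call (adjusted p up to 0.117). COL9A2 was 5.26 ± 0.55 and COL23A1 2.44 ± 0.38 higher in VE/YE (edgeR adjusted p = 8.1e-06 and 0.000134), each in 9 of 9 embryos, but the COL23A1 call was lost with at least 10 cells per sum (adjusted p = 0.0700).

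TE shared few of these differences. In 10 embryos, 4 of 20 tested collagen genes were higher in TE than in EPI and 5 were lower (edgeR quasi-likelihood test, embryo as a block). Among all 10209 genes tested, 46.8% were called, 25.0% higher and 21.7% lower, so the collagen genes were called no more often than genes in general. Their median difference was -0.38, beside 0.07 for all genes.

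COL15A1, a basement membrane zone collagen related to COL18A1, was the leading one. It ranged from 17.2 to 193 CPM in TE with a median of 65.1, and from 0.990 to 9.53 CPM in EPI with a median of 3.58. All TE sums lay above all EPI sums, by 4.20 ± 0.47 on the log2 scale (SE, edgeR adjusted p = 3.62e-06). COL5A2 averaged 64.9 ± 42.9 CPM in TE and 13.0 ± 8.91 CPM in EPI, 2.07 ± 0.39 higher (edgeR adjusted p = 0.000395), in 10 of 10 embryos. Its partner COL5A1 was not among the genes called.

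COL4A2 was 2.02 ± 0.50 higher in TE (SE, edgeR adjusted p = 0.00371), in 8 of 10 embryos, and lost its call with developmental stage labels alone (1.26, adjusted p = 0.105). COL4A1 gave 1.28 ± 0.61 (edgeR adjusted p = 0.103), whereas COL4A5 and COL4A6 were lower by -1.92 ± 0.58 and -1.87 ± 0.46 (edgeR adjusted p = 0.0128 and 0.00324). COL5A3 averaged 8.48 ± 7.27 CPM in TE and 44.9 ± 29.1 CPM in EPI, -2.74 ± 0.41 lower in 10 of 10 embryos (edgeR adjusted p = 5.85e-05). COL23A1 was -1.94 ± 0.56 lower (edgeR adjusted p = 0.0102).

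COL1A1 had a median of 19.0 CPM in TE and 255 CPM in EPI, and TE was the higher in 2 of 10 embryos, both of day 17. The difference within embryos was -2.88 ± 0.63 (SE, edgeR adjusted p = 0.00251), and without the embryo block it was -1.02 with an adjusted p of 0.312. COL1A2, COL3A1, COL6A1 and COL6A3 gave -0.85 ± 0.54, 0.57 ± 0.52, 0.66 ± 0.43 and 0.37 ± 0.63 (edgeR adjusted p = 0.217, 0.394, 0.227 and 0.654). COL6A2 gave 0.81 ± 0.28 (edgeR adjusted p = 0.0271), a call that ended without day 11 replicate 1 or 2, day 14 replicate 4, or day 17 replicate 1 or 2 (adjusted p up to 0.0957). It also ended without the filter on low counts and with at least 10 or at least 3 cells per sum. The same held with developmental stage labels alone and without the embryo block (edgeR adjusted p up to 0.182 over these settings).

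**Figure D3:**
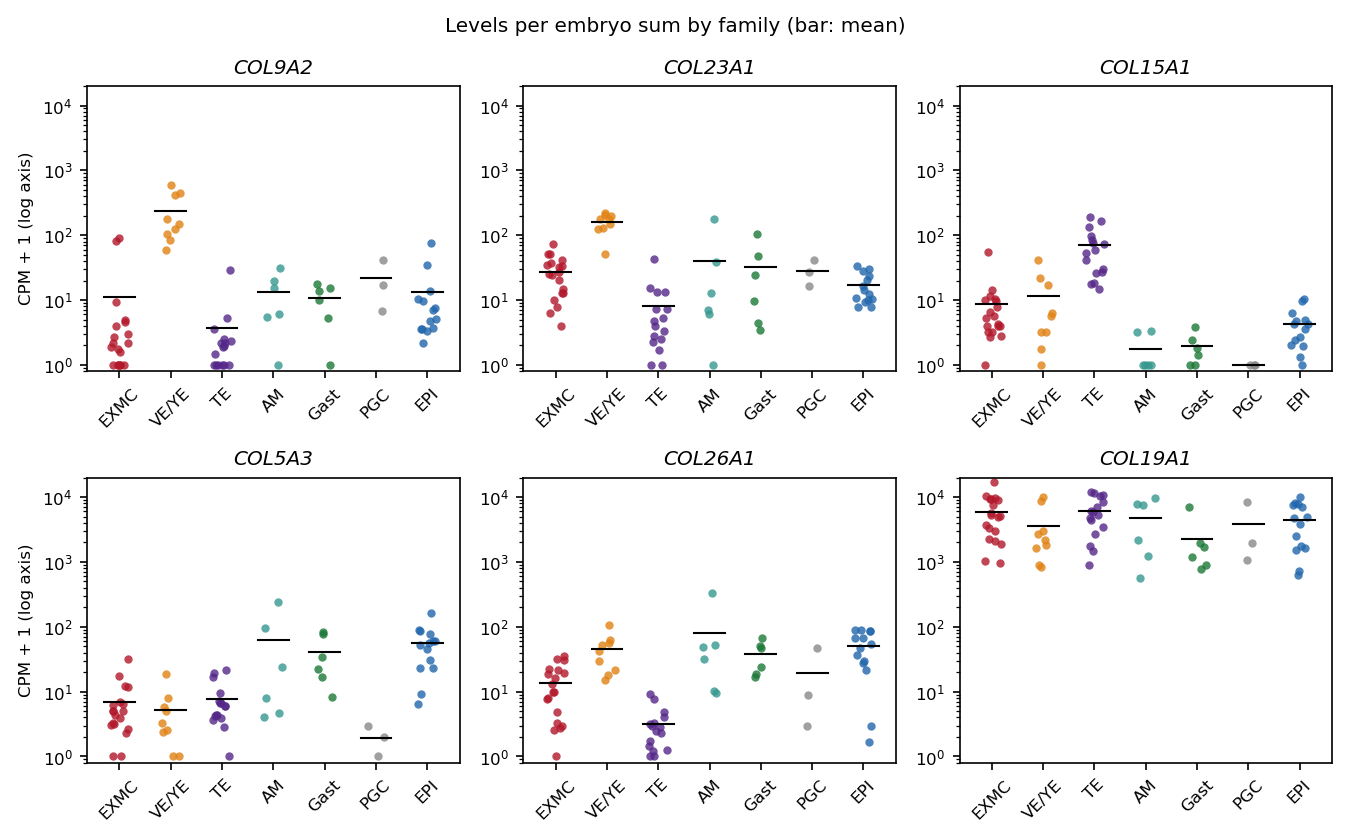
CPM of COL9A2, COL23A1, COL15A1, COL5A3, COL26A1 and COL19A1 in each embryo's sum (points) by cell family, with the mean as a bar. COL9A2 and COL23A1 stand highest in VE/YE and COL15A1 in TE, COL5A3 and COL26A1 lie highest in single AM sums and are spread over EPI, and COL19A1 covers a like wide range in every family.

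AM and Gast were each set against EPI of the same embryos, in 6 embryos each. In AM, 0 of 19 tested collagen genes passed the edgeR test, and 5 had an unadjusted p under 0.05. Of all 9810 genes tested, edgeR called 5.12%, 3.19% higher and 1.93% lower, and 1866 had an unadjusted p under 0.05. DESeq2 called 4 collagen genes higher, and its count over all genes is not given here. COL5A1 averaged 80.9 ± 58.6 CPM in AM and 23.3 ± 11.8 CPM in EPI (SD, n = 6 each), a difference of 1.68 ± 0.56 (SE, edgeR adjusted p = 0.0994). COL4A2 gave 1.57 ± 0.65 and COL6A2 1.42 ± 0.53 (edgeR adjusted p = 0.198 and 0.139). The type I and III chains gave 0.29 ± 0.29 for COL1A1, 0.09 ± 0.46 for COL1A2 and -0.24 ± 0.41 for COL3A1 (edgeR adjusted p = 0.634, 0.948 and 0.803).

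In Gast, 1 of 24 tested collagen genes was higher than in EPI and 0 were lower, and 10 had an unadjusted p under 0.05. Of all 11362 genes tested, edgeR called 1.01%, 0.546% higher and 0.466% lower, and 1542 had an unadjusted p under 0.05. DESeq2 called 6 collagen genes higher, and its count over all genes is not given here. COL4A2 averaged 86.0 ± 74.3 CPM in Gast and 13.3 ± 10.2 CPM in EPI (SD, n = 6 each), 2.47 ± 0.45 higher in 6 of 6 embryos (SE, edgeR adjusted p = 0.0208). Leaving out day 16 replicate 1, 2 or 3 ended this call (adjusted p up to 0.116). COL4A1 gave 2.15 ± 0.53 and COL6A1 1.98 ± 0.52 (edgeR adjusted p = 0.0782 and 0.0995), each higher in 5 of 6 embryos. COL1A1 gave -0.06 ± 0.76 (edgeR adjusted p = 0.986). EXMC markers summed to 62.1 to 1895 CPM in Gast sums and 478 to 1622 CPM in AM sums, beside 25.0 to 380.5 CPM in EPI sums, and their part in these values was not tested. Among these markers, HAND1 was not highest in EXMC: it averaged 316 CPM in Gast and 599 CPM in AM, against 204 CPM in EXMC.

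Some chains were carried by single cells in these small families. The late amnion label L-AM1 (3 sums, 16 cells) held the highest mean over all 12 labels of COL5A3, 215 ± 235 CPM, and of COL26A1, 237 ± 354 CPM (SD, n = 3), each spread widely between its embryos. Over the 22 cells with this label, 1 cell gave 46.8% of the COL5A3 counts and 1 cell 50.3% of the COL26A1 counts. Its COL6A2 mean of 322 CPM rested for 62.5% of the counts on 1 cell, and its COL23A1 mean of 118 CPM for 79.8%. COL2A1, the main collagen of cartilage, was highest on average in PGC, but 99.0% of its counts in the PGC sum of day 16 replicate 2 came from 1 cell.

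Over the days of the labels, 11 of 23 tested collagen genes rose in EXMC and 0 fell, with day as a number over 19 embryos (edgeR quasi-likelihood test). Among all 11056 genes tested, 11.8% were called, 7.15% rising and 4.64% falling with day. The median change was 0.24 log2 units a day for collagen genes and 0.02 for all genes. Those that rose were 5 of 7 fibrillar genes, 1 of 4 type IV genes, 3 of 4 type VI genes and 2 of 8 others. The summed EXMC markers stood at 1530 to 1555 CPM in the EXMC sums of day 11, 5518 to 13543 CPM in those of day 16 and 6221 to 7239 CPM in those of day 17. LUM, DCN and VIM had the highest means of these markers over all EXMC sums, at 1824, 1181 and 1074 CPM. LUM and DCN also belong to the list of genes that modify or bind collagen, given below. The summed TE markers stood at 1219 to 1318 CPM in the EXMC sums of day 11, 554 to 3763 CPM in those of day 13, 93.4 to 260.3 CPM in those of day 16 and 171 to 336 CPM in those of day 17. CGA had by far the highest mean of the TE markers over all EXMC sums, 806 CPM. What part either had in the rise of the collagen genes was not tested.

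Summed over the 11 fibrillar genes, day 11 EXMC held 892 ± 62.0 CPM (SD, n = 2), day 12 EXMC 3347 ± 1247 (n = 4) and day 13 EXMC 3473 ± 2126 (n = 3). Day 14 EXMC held 8271 ± 4392 CPM (n = 3), day 16 EXMC 16542 ± 3412 (n = 4) and day 17 EXMC 14069 ± 2174 (n = 3). COL1A2 stood at 83.2 and 32.5 CPM in the day 11 embryos, at 2971 to 4739 CPM in those of day 16 and at 2686 to 4029 CPM in those of day 17. No embryo before day 16 reached the lowest of these late values. COL1A2 and COL1A1 both rose by 0.68 log2 units a day, with SEs of 0.12 and 0.09 (edgeR adjusted p = 0.00167 and 7.58e-05).

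COL3A1 rose by 0.52 ± 0.10 a day (SE, edgeR adjusted p = 0.0022), and its call was lost without the embryos of day 16 (adjusted p = 0.0587). COL5A1 and COL5A2 rose by 0.41 ± 0.06 and 0.35 ± 0.08 a day (edgeR adjusted p = 0.000138 and 0.00746), and the COL5A2 call was also lost without day 16 (adjusted p = 0.0788) and with at least 10 cells per sum. In single EXMC cells, the median of COL1A1 was 159 CPM in the 23 cells of day 11, 376 in the 45 of day 12, 903 in the 45 of day 13, 1765 in the 130 of day 14, 3820 in the 86 of day 16 and 3943 in the 156 of day 17. For COL1A1 the median over cells followed the same order of days as the mean over embryos.

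**Figure D4:**
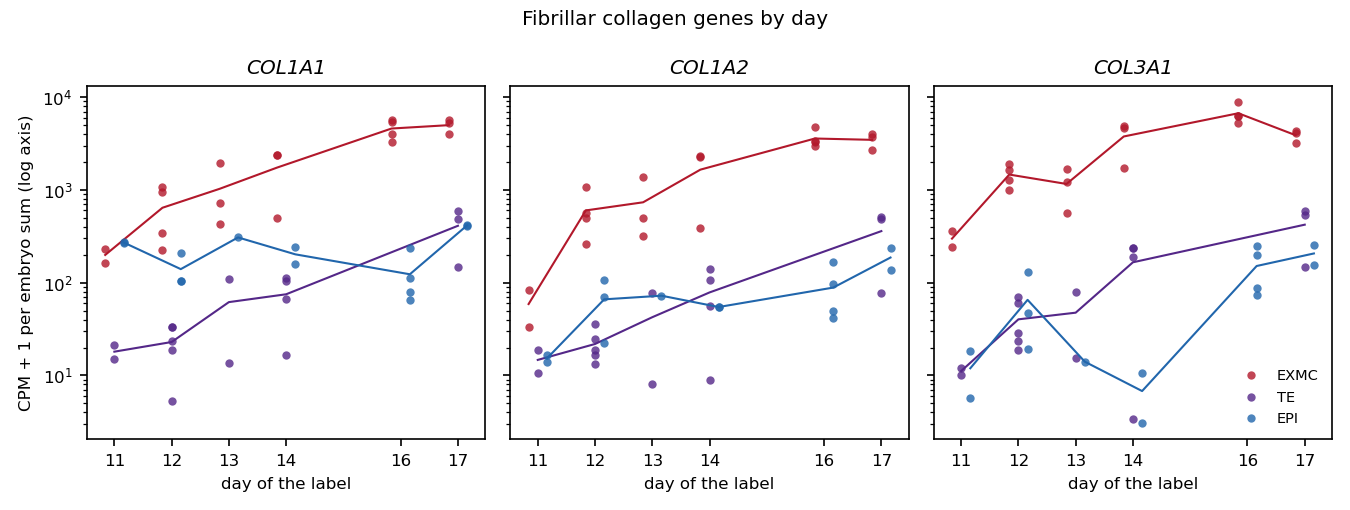
CPM + 1 (log axis) of COL1A1, COL1A2 and COL3A1 against day of the label, 1 point per embryo and family, with lines through the means of each day for EXMC, TE and EPI. In EXMC all 3 genes stand higher at days 16 and 17 than at day 11, while COL1A1 in EPI lies between 64.7 and 419 CPM throughout.

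Type VI chains also rose, with smaller daily changes than COL1A1 and COL1A2. COL6A2 rose by 0.32 ± 0.06, COL6A3 by 0.25 ± 0.04 and COL6A1 by 0.23 ± 0.05 log2 units a day (SE, edgeR adjusted p = 0.00197, 0.000448 and 0.00567). COL6A1 lost its call without day 16 (adjusted p = 0.0808) and with at least 10 cells per sum. The type VI sum was 1298 ± 306 CPM at day 11 (SD, n = 2) and 3585 ± 101 CPM at day 17 (n = 3). The type IV sum stood at 924 ± 61.1 CPM at day 11 and 1683 ± 234 CPM at day 17. COL4A1 rose by 0.16 ± 0.05 a day (edgeR adjusted p = 0.0368), but leaving out day 11 replicate 1 or 2, day 12 replicate 5, day 16 replicate 1, 3 or 4, or day 17 replicate 1 or 3 ended the call (adjusted p up to 0.0831), as did leaving out all of day 16 or of day 17 (adjusted p = 0.158 and 0.0901). The COL4A1 call was also lost with at least 10 cells per sum. COL4A2 gave 0.17 ± 0.06 (edgeR adjusted p = 0.0601).

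The other genes that rose in EXMC were COL16A1, a fibril-associated collagen, by 0.96 ± 0.16 a day, and COL7A1, which forms anchoring fibrils, by 0.50 ± 0.15 (SE, edgeR adjusted p = 0.000347 and 0.0259). COL16A1 had no count in either day 11 sum and stood at 32.0, 12.4, 76.9 and 115 CPM in the day 16 embryos. COL21A1 stood at 1.49 and 6.97 CPM in the day 11 embryos, 139.6 to 434 CPM in those of day 16 and 50.3 to 112 CPM in those of day 17, and its change with day did not pass the test (0.46, edgeR adjusted p = 0.0942).

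Day 17 EXMC was also set against day 16 EXMC, in a fit over all 19 EXMC sums with each day as a group. Of 34 tested collagen genes 1 was called, lower at day 17 (edgeR quasi-likelihood test). Among all 14275 genes tested 1.72% were called, 0.911% higher and 0.813% lower. An unadjusted p under 0.05 was found for 12 collagen genes and for 2097 of all genes. The called gene was COL9A2, with 1.20, 0.780 and 1.69 CPM at day 17 and 8.30, 3.53, 79.7 and 88.6 CPM at day 16, a difference of -5.13 ± 1.26 (SE, edgeR adjusted p = 0.0292). At day 16 a single cell gave 149 of the 174 counts in replicate 3 and 84 of the 98 counts in replicate 4. VE/YE markers summed to 7.80 to 70.4 CPM in EXMC of day 17 and to 116 to 2435 CPM in EXMC of day 16, and their part in this difference was not tested. The call ended without day 16 replicate 3 or 4 and without any embryo of day 17 (adjusted p up to 0.173). It also ended with the replicate block (adjusted p = 0.103), with label type in the model (0.163) and over embryos with developmental stage labels only (0.761): all 4 embryos of day 16 carry such labels and 2 of the 3 of day 17 do not, so day and label type can hardly be told apart here.

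COL3A1 averaged 3889 ± 627 CPM at day 17 (SD, n = 3) and 6705 ± 1508 CPM at day 16 (n = 4), and the ranges did not overlap, but the difference of -0.79 ± 0.32 did not pass the test (SE, edgeR adjusted p = 0.226). COL11A1, a minor chain of cartilage-type fibrils, went the other way, with 119, 85.9 and 128 CPM at day 17 and 0 to 16.0 CPM at day 16 (3.97 ± 1.34, edgeR adjusted p = 0.162). COL1A1, COL1A2 and COL4A1 gave 0.11 ± 0.58, -0.05 ± 0.57 and -0.00 ± 0.33 (edgeR adjusted p = 0.959, 0.979 and 0.999).

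In EPI, 0 of 26 tested collagen genes passed the test of change with day over 14 embryos (edgeR quasi-likelihood test). Of these, 10 had an unadjusted p under 0.05. Of all 11589 genes tested, edgeR called 3.81%, 1.94% rising and 1.87% falling, and 2204 had an unadjusted p under 0.05. DESeq2 called 2 collagen genes rising and 1 falling, and its count over all genes is not given here. All EPI cells of days 11 to 14 carry the label postE-EPI and those of days 16 and 17 postL-EPI, so day and label change together. COL1A1 changed by 0.04 ± 0.09 log2 units a day (SE, edgeR adjusted p = 0.863). COL1A2 and COL3A1 gave 0.34 and 0.49 a day (edgeR adjusted p = 0.0648 and 0.155). COL3A1 in EPI stood at 4.76 and 17.1 CPM at day 11 and at 257 and 154 CPM at day 17, while the EXMC markers summed to 25.0 to 71.9 CPM in the EPI sums of day 11 and to 280.1 to 380.5 CPM in those of day 17. The part of the EXMC markers in this was not tested.

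The 2 EPI sums of day 17 stood apart for 3 chains that were otherwise higher in EPI than in EXMC. COL25A1 stood at 0.670 and 0.990 CPM there, against 15.2 to 66.4 CPM in the 12 earlier EPI sums. COL26A1 stood at 0.670 and 1.98 CPM, against 20.9 to 89.3 CPM, and COL5A3 at 8.04 and 5.44 CPM, against 21.9 to 162 CPM. Neither day 17 sum reached the lowest earlier one for any of the 3, a pattern picked out after the values were seen and not tested as such. Both embryos carry culture stage labels, and no other embryo of day 17 held enough EPI cells. Day 12 replicate 1 and day 13 replicate 2 carry such labels too, and their EPI sums held 40.02 and 43.5 CPM of COL25A1, 45.7 and 88.8 CPM of COL26A1 and 43.8 and 55.7 CPM of COL5A3.

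In TE, 12 of 24 tested collagen genes rose with day and 0 fell over 16 embryos (edgeR quasi-likelihood test). Among all 12205 genes tested 14.9% were called, 8.07% rising and 6.78% falling, and the median change was 0.44 log2 units a day for collagen genes and -0.01 for all genes. COL4A1 rose by 1.00 ± 0.10 a day (SE, edgeR adjusted p = 2.97e-05), COL1A1 by 0.82 ± 0.11, COL1A2 by 0.83 ± 0.12 and COL3A1 by 0.82 ± 0.16 (edgeR adjusted p = 0.000255, 0.000383 and 0.00415). COL17A1, a transmembrane collagen of the plaques that anchor epithelia, rose by 1.32 ± 0.20 (edgeR adjusted p = 0.000303).

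COL4A1 in TE stood at 19.97 and 17.9 CPM in the embryos of day 11, 11.2 to 47.9 in those of day 12, 95.0 and 51.9 in those of day 13, 65.0 to 411 in those of day 14, and 1243, 1095 and 253 in those of day 17. The day 17 sums of 1243 and 1095 CPM lay above all earlier ones, but that of 253 CPM lay below the highest of day 14. In the day 17 embryos EXMC held 1255, 801 and 989 CPM. COL15A1, high in TE from the start at 13.9 to 193 CPM over all days, gave 0.27 a day (edgeR adjusted p = 0.0959).

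These rises rested on the 3 TE sums of day 17, which held 5 to 10 cells each. Without day 17 only COL4A1 was called (1.12 a day, adjusted p = 0.0488), and with developmental stage labels alone only COL4A1 and COL1A1 were (0.89 and 0.68, adjusted p = 0.0348 and 0.0408). The 8 TE markers summed to 742 to 1127 CPM in TE of day 17 and to 6417 to 22666 CPM in TE of days 11 to 14. This sum rests mostly on CGA, which averaged 9493 CPM over all TE sums (41.9 to 18003), beside 592 CPM for GATA2, the next highest. The 10 EXMC markers summed to 158 to 741 CPM in TE of day 17 and to 105 to 501 CPM in TE of days 11 to 14, with SNAI2 at 0, and the 5 endothelial markers to 522 to 1936 CPM at day 17 and 356 to 2050 CPM before. The part of other cell types in the TE rises was not tested.

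**Figure D5:**
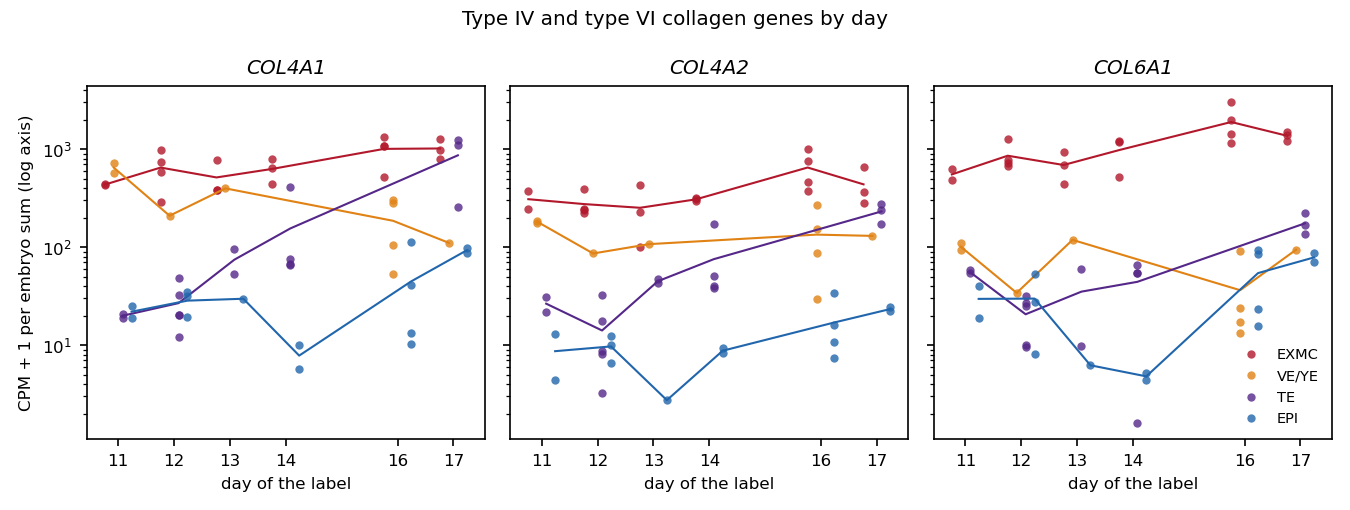
CPM + 1 (log axis) of COL4A1, COL4A2 and COL6A1 against day of the label, 1 point per embryo and family, with lines through the day means for EXMC, VE/YE, TE and EPI. COL4A1 in TE stands at 17.9 and 19.97 CPM at day 11 and between 253 and 1243 CPM on day 17, while EXMC keeps within 287 to 1341 CPM.

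In VE/YE, 0 of 16 tested collagen genes passed the test of change with day over 9 embryos (edgeR quasi-likelihood test), and 6 had an unadjusted p under 0.05. Of all 7602 genes tested edgeR called 0.145%, 0.132% rising and 0.0132% falling, and 724 had an unadjusted p under 0.05. DESeq2 called 4 collagen genes rising, and its count over all genes is not given here. COL4A1 stood at 576 and 719 CPM in the day 11 embryos, 208 in that of day 12, 397 in that of day 13, 52.7 to 299.7 in those of day 16 and 109.5 in that of day 17, a change of -0.34 ± 0.09 a day (SE, edgeR adjusted p = 0.146).

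Whether the change with day differed between EXMC, EPI and TE was tested in one model over the 3 families (edgeR quasi-likelihood F-test with embryo as a block). Of 38 tested collagen genes, 5 differed and 15 had an unadjusted p under 0.05. Of all 17520 genes tested, 6.24% were called and 4032 had an unadjusted p under 0.05. For COL1A1 (adjusted p = 0.0034), the daily change was 0.79 ± 0.16 log2 units greater in EXMC than in EPI and 0.81 ± 0.16 greater in TE than in EPI, while EXMC minus TE was -0.01 ± 0.15 (SE). For COL4A1 (edgeR adjusted p = 0.00644), TE minus EPI was 0.69 ± 0.16, EXMC minus EPI was -0.02 ± 0.14 and EXMC minus TE was -0.70 ± 0.15. COL4A2 had the same order (edgeR adjusted p = 0.0343), with 0.42 ± 0.16 for TE minus EPI and -0.52 ± 0.13 for EXMC minus TE. COL25A1 (edgeR adjusted p = 0.00795) changed by 0.75 ± 0.24 more a day in EXMC and 1.17 ± 0.26 more in TE than in EPI, where its day 17 levels were the low ones given above. COL8A1, with 371 counts in all cells, was the fifth (edgeR adjusted p = 0.0415).

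The COL1A1 difference lost its call without day 16 (adjusted p = 0.0502). Those of COL4A1, COL4A2 and COL25A1 were lost without day 17, with developmental stage labels alone and with sums of at least 10 cells, and COL4A2 also without either embryo of day 11, day 12 replicate 1 or 2, or day 17 replicate 1 or 2 (adjusted p up to 0.138).

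Genes that modify, secrete, process, cross-link or bind collagen were counted from a list of 52 names, of which 46 had a row in the table. TANGO1 had no row but is another name of MIA3, which had a row. In EXMC against EPI, 24 of 30 tested genes were higher and 1, the collagen receptor DDR1, was lower (edgeR quasi-likelihood test), against 16.0% higher and 18.8% lower among all genes tested. The largest differences were those of LUM and DCN, proteoglycans that coat fibrils, at 5.53 ± 0.66 and 5.42 ± 0.56 log2 units, but both are also EXMC markers here. The collagen receptors DDR2 and ITGA1 were 4.74 ± 0.63 and 4.74 ± 0.39 higher (edgeR adjusted p = 4.14e-06 and 2.82e-08). PLOD2, which hydroxylates lysines for cross-linking, was 3.10 ± 0.20 higher (edgeR adjusted p = 1.39e-10).

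Over days in EXMC, 15 of 33 tested genes of the list rose and 0 fell, against 7.15% rising and 4.64% falling among all genes tested. PCOLCE, which speeds the trimming of procollagen, rose by 1.19 ± 0.14 a day, and LOX, which cross-links fibrils, by 0.71 ± 0.16 (SE, edgeR adjusted p = 2.45e-05 and 0.0053). In VE/YE against EPI, 10 of 25 were higher and 0 lower, against 11.1% and 12.1% of all genes, led by ITGA11, a collagen-binding integrin chain, at 6.82 ± 0.87 (edgeR adjusted p = 1.47e-05). In TE against EPI, 9 of 27 were higher, led by the integrin chains ITGA2 at 4.23 ± 0.48 and ITGA1 at 3.72 ± 0.56 (edgeR adjusted p = 4.02e-06 and 9.64e-05). There 5 were lower, with FKBP10, a chaperone of collagen folding, at -3.87 ± 0.66 (edgeR adjusted p = 0.000188). In TE 25.0% of all genes were higher and 21.7% lower, so the counts of the list there lie near those of all genes. In VE/YE against EXMC, 1 of 28 was higher and 15 were lower, against 6.12% and 7.06% of all genes. With day, 16 of 30 rose in TE, 3 of 28 in EPI and 1 of 27 in VE/YE, and none of those tested fell. The shares of all genes that rose were 8.07% in TE, 1.94% in EPI and 0.132% in VE/YE. In day 17 against day 16 EXMC, 1 of 38 was higher and 1 lower, against 0.911% and 0.813% of all genes. In AM 2 of 28 were higher than in EPI, against 3.19% of all genes. In Gast against EPI 0 of 29 passed the edgeR test, and 6 had an unadjusted p under 0.05. Of all 11362 genes tested there, edgeR called 1.01%, and 1542 had an unadjusted p under 0.05. DESeq2 called 3 of the list higher in Gast, and its count over all genes is not given here.

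COL19A1, a minor fibril-associated collagen, did not follow the other members. It had at least 3 counts in each of the 1453 cells, and its level per embryo ran from 681 to 11581 CPM, a span of 17.0-fold. Within an embryo, the highest family exceeded the lowest by a median of 1.63-fold in 15 embryos (1.18 to 2.32), beside medians of 25.4-fold for COL6A2 to 95.3-fold for COL6A3 among the 8 abundant chains. In EXMC against EPI it gave 0.24 ± 0.11 (SE, edgeR adjusted p = 0.0942). Across the 1453 cells its CPM correlated with that of SLC24A3 (r = 0.891), TRIM58 (r = 0.804) and DLG2 (r = 0.798), given as a description over cells that share embryos and depth. These were 3 of 8677 genes compared that passed 0.7. The counts of COL19A1 are part of the 0.473% given above for the other types, and their origin was not tested.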

How the data were processed

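Raw counts per gene and cell were deposited by the authors as 1 table of 30792 genes and 1453 cells. A further table gave each cell's label and its day, written as d.p.f. (days post fertilization), which equals the day of the sample label. Per the submitters' processing notes reads were aligned with STAR; its version, the genome build, the counter, and whether PCR copies were collapsed were not given in the sources used here, so no coordinates or sequences are printed. The protocol in the labels describes hand-picked cells and 3′ ends, so a count does not scale with transcript length. The table names cells by embryo and number, so barcodes shared between libraries could not be counted, and doublets were not called. Embryos held 2540816 to 11857191 counts.

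Counts were summed per embryo and family (at least 5 cells; 3 per label) and tested with edgeR 4.0.16 in R 4.3.3 (filterByExpr, TMM, robust quasi-likelihood fit), fitted on all genes, with Benjamini-Hochberg adjusted p under 0.05 as a call. Families were compared within embryos, with embryo as a block. Day was a number, except in day 17 against day 16 EXMC. There each day was a group of its own, fitted over all 19 EXMC sums. Printed CPM use one TMM scale over all family sums. Alternatives were DESeq2 1.42.0, its size factors, no filter, 10 or 3 cells per sum, each embryo left out, developmental stage labels alone (16 of 21 embryos; the other 5 carry culture stage labels), label type as a covariate, no day 16 and the replicate number as a block. The fits were tested on simulated data. Values are given for COL1A1, COL1A2, COL3A1, COL4A1, COL4A2, COL6A1, COL6A2 and COL6A3 and for up to 3 further called members of each class at 20 CPM or more; other values were chosen after they were seen. The members and lists were chosen with earlier results of these data known. Same-numbered embryos of days 16 and 17 share only a number (correlations of 0.072, -0.0192 and -0.0235).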

Additional observations from a re-analysis of the deposited data

Results flagged for a closer look

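Of 64 groups of 4 or 5 sums examined for the 8 abundant collagen genes, 5 held a sum far from the rest by Dixon's test for an outlying value. Its rate of about 1 in 20 by chance assumes normally distributed values. The CPM were not put on a log scale and genes share the same sums, so that rate is only a rough guide here. In EXMC of day 12, COL4A2 stood at 392.6 CPM in replicate 1, and the others lay between 221.8 and 241.9 CPM. In VE/YE of day 16, replicate 4 held 200.6 CPM of COL1A2, with the others between 54.1 and 73.0 CPM, and 90.4 CPM of COL6A1, with the others between 12.2 and 22.8 CPM. In TE of day 14, replicate 3 held 410.8 CPM of COL4A1, with the others between 65.0 and 74.7 CPM, and 171.6 CPM of COL4A2, with the others between 37.4 and 49.3 CPM.

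The change with day differed between EXMC, EPI and TE for 5 collagen genes in the edgeR test across all genes. The adjusted p was 0.0034 for COL1A1, 0.00644 for COL4A1, 0.00795 for COL25A1, 0.0343 for COL4A2 and 0.0415 for COL8A1.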

How the results depend on the processing

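Outside the test of a difference between families, no named value changed direction together with a call under any alternative run. In that test EXMC minus EPI lay near 0 for COL4A1 and ran from -0.0746 to 0.0656 with each embryo left out, the call being kept in each fit. For COL4A2 it ran from -0.219 to 0.0306 over the other alternatives. The counts below are of collagen genes called, and changes not listed stayed within 1.5 times. Counts of all genes called are given below only as ranges over the alternatives, and not for every comparison. The numbers of collagen genes tested in each alternative are not given. Without the filter on low counts more were tested, so those counts cannot be set against the shares reported above. DESeq2 called 8 lower in TE against EPI, 4 higher in AM, 6 higher in Gast, 2 rising and 1 falling with day in EPI, 4 rising in VE/YE, 6 lower at day 17 against day 16, and 9 that differed between families. Without the filter on low counts 8 were lower in EXMC, 6 in VE/YE and 13 in TE against EPI, 1 was higher in AM and 3 in Gast, 3 rose and 1 fell in EPI, 4 rose and 1 fell in VE/YE, 2 were higher and 4 lower at day 17, and 14 differed between families. With at least 10 cells per sum 1 was lower in VE/YE and 8 in TE against EPI, 4 were higher in AM and 0 in Gast, 1 was higher and 5 lower in VE/YE against EXMC, 6 rose in TE, 1 was higher and 2 lower at day 17, and 2 differed between families. With at least 3 cells 0 were lower in VE/YE, 1 was higher in AM and 0 in Gast, and 1 rose in EPI and 1 in VE/YE.

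With developmental stage labels alone 9 were lower in TE against EPI, 2 rose in TE, 0 were lower at day 17 and 2 differed between families; label type as a covariate left 0 lower at day 17. Without day 16, 7 rose in EXMC and 1 in EPI. Without day 17, an alternative chosen after seeing the data, 1 rose in TE, 2 in VE/YE, and 2 differed between families. Without the embryo block 1 was lower in VE/YE and 3 in TE against EPI, and 0 were higher in Gast. The replicate number as a block shared no animal; with it 12 rose in EXMC and 12 in TE, and COL4A1 lost its call in EXMC (adjusted p = 0.0884).

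Leaving out each embryo gave 15 to 16 higher and 3 to 4 lower in EXMC against EPI, 4 to 6 higher and 2 to 3 lower in VE/YE, 3 to 4 higher and 4 to 7 lower in TE, 0 to 1 higher in AM and 0 to 3 higher in Gast. It gave 2 to 3 higher and 10 to 13 lower in VE/YE against EXMC, 9 to 12 rising in EXMC, 9 to 12 in TE, 0 to 2 in EPI with 0 to 1 falling, 0 to 2 in VE/YE, 0 to 1 higher and 0 to 2 lower at day 17, and 3 to 7 that differed between families. The cause of these changes was not tested.

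Over all genes, calls in the alternatives other than single embryos ran from 36 to 728 in Gast (115 as reported), 226 to 1184 in AM (502) and 739 to 2939 in VE/YE against EPI (1879), and from 320 to 1831 in VE/YE against EXMC (1201). With day they ran from 586 to 2732 in EXMC (1303), 143 to 1232 in EPI (442), 17 to 2541 in TE (1813) and 11 to 345 in VE/YE (11). They ran from 17 to 698 at day 17 against day 16 (246) and from 226 to 1744 for the difference between families (1093). DESeq2 size factors moved the median of all genes by less than 0.1 log2 units in each comparison. The change with day in VE/YE could not be fitted with at least 10 cells per sum or with the label covariate. Sums of few cells limit AM, Gast, VE/YE and day 17 TE, and counts do not tell PCR copies from molecules.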
